A study of Drosophila melanogaster with 12 samples.

Results

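The secretory pathway from the endoplasmic reticulum (ER) to the Golgi apparatus was examined through 43 genes, picked by name for their known roles in targeting, translocation, folding, vesicle transport and ER stress. The choice was made with earlier results of these data known. Of these, 41 were matched by symbol among the 17559 genes counted, and Tango1 and Pdi were not analysed here. All 41 passed the filter on low counts, as did 13156 genes in all. The members comprised 5 genes of targeting to the ER, 5 of translocation into it, 8 of folding inside it, 7 of the outward COPII coat, 4 cargo and retrieval receptors, 6 of the returning COPI coat, 2 Golgi tethers and 4 ER stress genes. They lay scattered over the genome, with 5 on chromosome arm 2L, 7 on 2R, 8 on 3L, 13 on 3R and 8 on X.

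RNA was sequenced from dissected male reproductive tracts of Drosophila melanogaster, each library a pool of 30 tracts with accessory glands, testes and ejaculatory duct. Virgin males came from 6 populations that had been founded from a single stock, called IV, and had evolved separately for 168 generations. In the polygamous populations P1, P2 and P3, 5 males and 5 females interacted for 2 days in each generation, whereas in the monogamous populations M1, M2 and M3, 1 male was paired with 1 virgin female. The 4 groups, with 3 libraries each, were polygamous males of 96 h, polygamous males of 48 h, monogamous males of 96 h and monogamous males of 48 h. Each population gave 1 library at each age. The spread within a group thus joins differences between evolving lines with those between pools and libraries, which cannot be told apart. All populations carried the variation of 1 founding stock, and no untreated control population was part of the design. The comparisons address how expression moves as young males mature and whether the mating history of a population alters levels or that movement.

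Proteins bound for secretion are recognised while still being made by the signal recognition particle, pass into the ER through the Sec61 channel and fold there with the help of chaperones and disulphide isomerases. COPII-coated vesicles then carry them towards the Golgi, and COPI-coated vesicles bring receptors and escaped ER proteins back. The accessory gland of the male fly is a secretory organ whose main cells and rarer secondary cells release seminal fluid proteins through this route. Ire1, PEK and Atf6 sense unfolded protein in the ER.

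In 5 of the 6 populations most members stood lower in the tracts of 96 h males than in those of 48 h males, and the 10 largest fitted changes without population M1 were those of the cargo receptor CHOp24, the COPII subunits Sec24CD and Sec31, the COPI subunits alphaCOP, betaCOP and gammaCOP, the Golgi tether Grasp65 and the chaperones Hsc70-3, Gp93 and Grp170. Population M1 went the other way, and its 48 h library held the lowest level of 35 of the 41 members among the 6 libraries of that age, as for 34.7% of all genes tested. With all libraries in the test, 1 member, the COPI subunit epsilonCOP, fell with age, against 0.646% of all genes tested. Without population M1, 21 members fell, against 3.53% of all genes tested, and 0 rose. Ire1 was the 1 member that stood higher at 96 h in all 6 populations, without passing the test. The share of all genes with that pattern is not given here. Between polygamous and monogamous males, 0 members passed edgeR's test at 96 h (0 at an unadjusted p under 0.05, and 0 by DESeq2) and 0 at 48 h (13 at an unadjusted p under 0.05, and 2 by DESeq2). Counts at an unadjusted p are given here and below without the share of all genes tested, so they do not show an excess.

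Libraries held 31367030 to 40581251 gene counts. Levels are given in CPM, counts scaled to a common library size, and a floor of 3 counts came to between 0.0727 and 0.0990 CPM, far under the level of every member. Summed over the 41 members, the level was 8379.6, 7842 and 7610.1 CPM in polygamous males of 96 h and 9671, 9282 and 9138 CPM in those of 48 h. In monogamous males it was 7425, 7446 and 7621 CPM at 96 h and 5326, 8434 and 8855 CPM at 48 h. The 3 polygamous libraries of 48 h were the 3 highest together, and the 48 h library of M1 was the lowest of all 12. That library also stood apart in the sums of cell type markers. Its 9 accessory gland main cell markers summed to 7507 CPM, against 14388 to 26502 CPM in the other 11 libraries, and its 4 matched secondary cell markers to 145 CPM, against 792 to 1295 CPM. Its 18 spermatocyte and spermatid markers summed to 14564 CPM, against 10090 to 11646 CPM, and its 8 fat body markers to 266 CPM, against 83.4 to 137 CPM. Haemocyte and basement membrane markers, 8 in number, summed to 435 CPM there, against 107 to 253 CPM, and 9 matched muscle markers to 938 CPM, against 1215 to 1626 CPM. Single markers did not all follow these sums. Acp95EF, at 1963 CPM, and aly, at 21.2 CPM, lay inside the range of the other libraries, and can, at 28.5 CPM, was the lowest of all 12. Pxn of the basement membrane list and Mlc1, Mlc2, Mf and sls of the muscle list also lay inside the range of the other libraries. Of the fat body sum, apolpp made up 172 CPM. Adgf-A, at 21.5 CPM, was the lowest at 48 h, and Lsp2, Fbp1 and Fbp2 were higher in P3 at 48 h. In pooled tissue, fewer cells of a type and less RNA per cell cannot be told apart, and the part of these differences in the members' levels was not tested. Results that rest on this library are given with and without population M1.

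**Figure D1:**
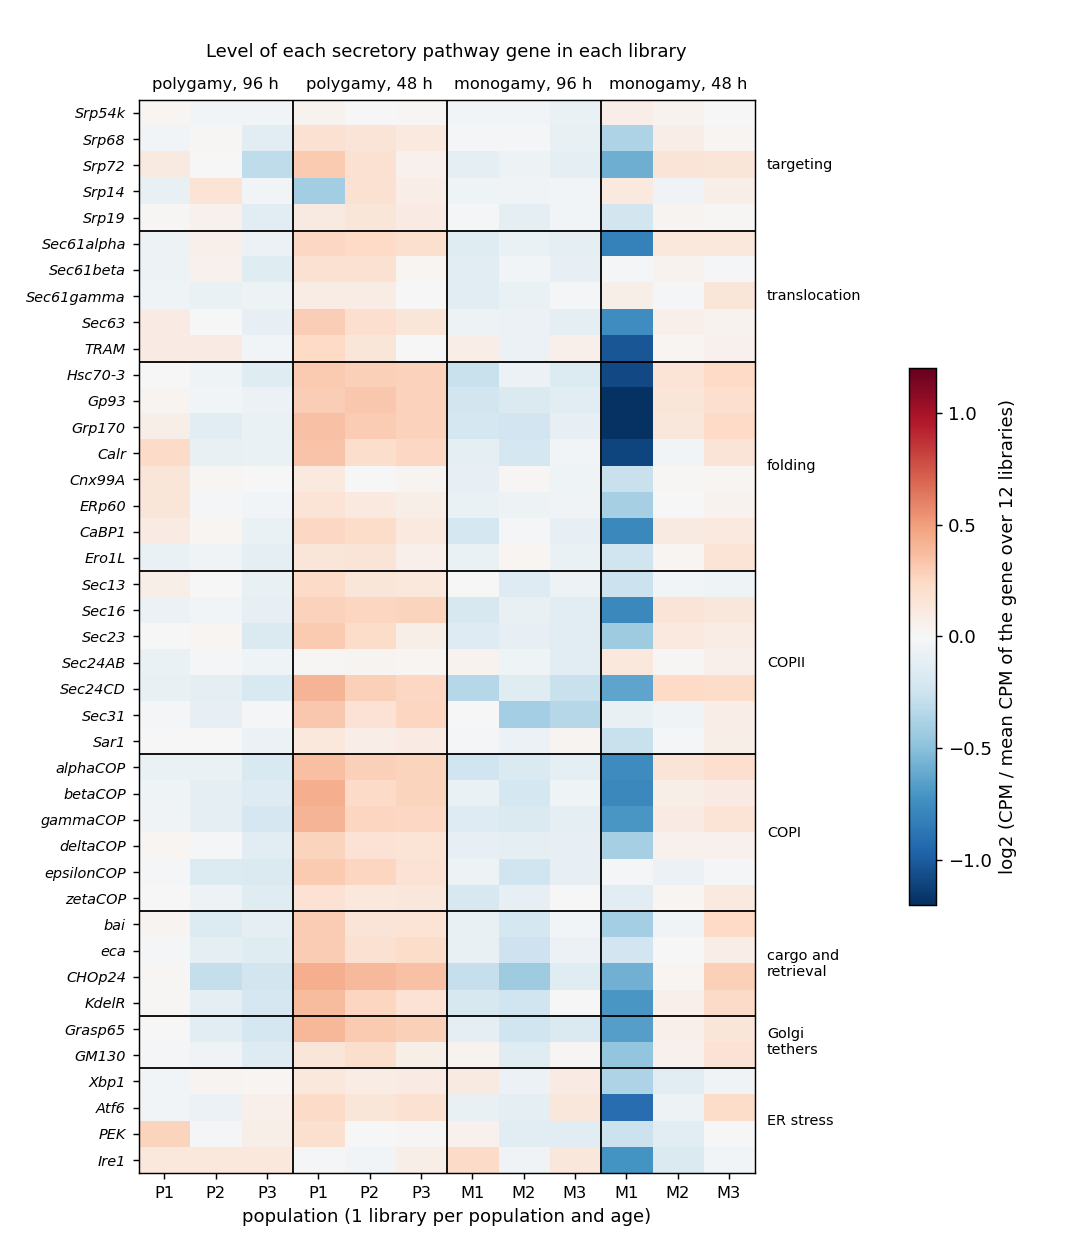
Level of each of the 41 members (rows, grouped by role) in each of the 12 libraries (columns, named by population), as log2 of CPM over the mean of that gene across libraries. The 48 h library of M1 is the lowest of the 6 libraries of that age for 35 members, and most rows are lower in the polygamous libraries of 96 h than in those of 48 h.

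Per kilobase of exon, the most abundant members were folding factors of the ER lumen. The calcium-binding lectin chaperone Calr averaged 475 CPM per kilobase over the 12 libraries, above 98.6% of the genes tested. It was followed by the disulphide isomerase ERp60 at 375, the Hsp70 chaperone Hsc70-3 (BiP) at 262, the Hsp90 chaperone Gp93 at 251 and the cargo receptor bai at 234 CPM per kilobase. Coat subunits lay lower, with COPI subunits between 30.4 CPM per kilobase for gammaCOP and 73.5 for epsilonCOP, and COPII genes between 10.6 for the scaffold Sec16 and 91.7 for the GTPase Sar1. The sensors Ire1, PEK and Atf6 were at 14.2, 11.6 and 7.50 CPM per kilobase, and Atf6 sat at the middle of all genes tested, above 50.0% of them.

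**Figure D2:**
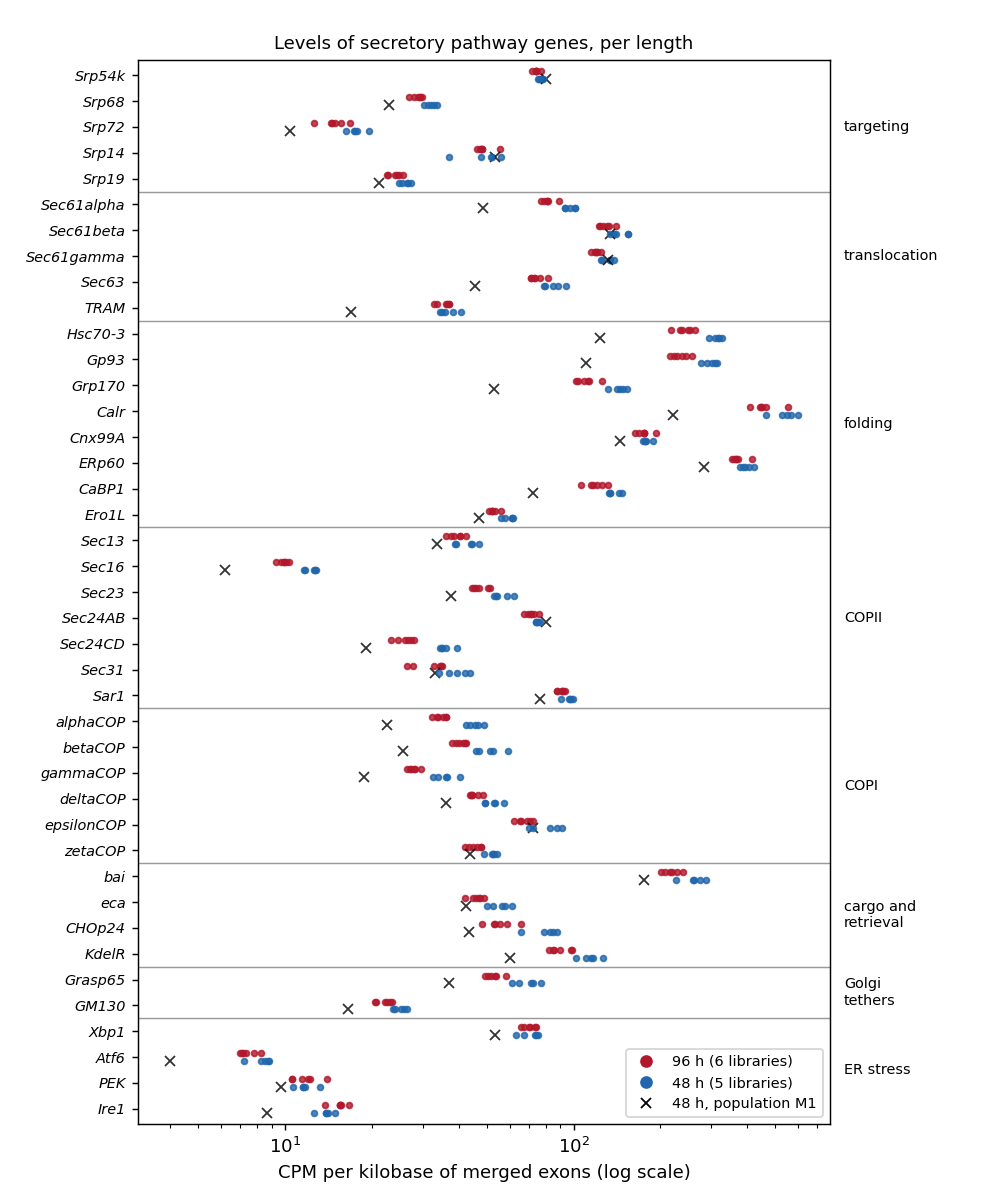
Level of each member in each library as CPM per kilobase of merged exons, on a log axis, with members grouped by role. Red points are the 6 libraries of 96 h, blue points 5 libraries of 48 h, and the black cross the 48 h library of M1. Calr, ERp60 and Hsc70-3 lie at the right and Atf6 at the left, and the cross is the leftmost of the 48 h points for 35 members.

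The targeting genes encode proteins of the signal recognition particle. Srp54k (FBgn0010747, chromosome arm 3L, 5152678 to 5154777 on BDGP6), the subunit that binds the signal peptide, had 156, 149 and 149.8 CPM in polygamous males of 96 h (P1, P2 and P3, in this order throughout) and 157, 153 and 154 CPM in those of 48 h. In monogamous males it had 149.6, 149.7 and 144 CPM at 96 h (M1, M2 and M3) and 162, 158 and 152 CPM at 48 h. All 12 values lay between 144 and 162 CPM and the groups overlapped, although each population was lower at 96 h than at 48 h. Its log2 change with age, averaged over both regimes, was -0.06 ± 0.03 (SE; adjusted p = 0.389, edgeR's quasi-likelihood test, as for every adjusted p unless another tool is named). Srp72 (FBgn0038810, chromosome arm 3R, 20588711 to 20591040), a scaffold protein of the particle, had 36.1, 33.6 and 27.1 CPM in polygamous males of 96 h and 41.8, 38.2 and 34.9 CPM in those of 48 h. In monogamous males its levels were 31.2, 32.1 and 30.9 CPM at 96 h and 22.3, 37.4 and 37.3 CPM at 48 h. The ages overlapped, and the M1 library of 48 h was the lowest of all. The change of Srp72 was -0.15 ± 0.12 (adjusted p = 0.584) with all libraries and -0.25 ± 0.08 without M1 (adjusted p = 0.114). Of the 5 targeting genes 0 passed edgeR's test in either of these fits, with 0 at an unadjusted p under 0.05 with all libraries and 3 without M1, and DESeq2 called 0. The others, Srp68, Srp14 and Srp19, changed by -0.15, -0.01 and -0.12 without M1. With the population as a block, which pairs the ages of each population, and without M1, Srp72 and Srp68 fell (adjusted p = 7.59e-04 and 0.00352).

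Of the 5 translocation genes, Sec61alpha and Sec63 fell without M1. Sec61beta (FBgn0010638, chromosome arm 2R, 14618771 to 14619681), a small subunit of the channel, had 103, 111 and 97.4 CPM in polygamous males of 96 h and 122, 123 and 109 CPM in those of 48 h. Monogamous males had 98.1, 105 and 100.5 CPM at 96 h and 106, 111 and 106 CPM at 48 h. Each of the 6 populations was lower at 96 h, but the ages overlapped, and the change of -0.13 ± 0.05 did not pass (adjusted p = 0.197). For Sec61gamma, the other small subunit, every 96 h library lay below every 48 h library, at 96.5, 95.0 and 96.4 CPM in polygamous and 91.9, 95.1 and 99.4 CPM in monogamous males of 96 h, against 107, 107 and 100.2 and 105, 99.6 and 111 CPM in those of 48 h. It was the one member with such a separation over all 12 libraries, as were 1.36% of all genes tested, and its change of -0.13 ± 0.04 did not pass (adjusted p = 0.144, and 0.113 without M1). Sec61alpha, the pore itself, fell 1.18-fold without M1 (log2 -0.24 ± 0.03, adjusted p = 0.00485), and with M1 its change was -0.12 ± 0.14 (adjusted p = 0.690). Sec63, which links the channel to Hsc70-3, fell 1.13-fold without M1 (adjusted p = 0.0459). A non-coding gene on the other strand covers 60.7% of the exon bases of Sec63, so its counts are uncertain. TRAM, a partner of the channel, had no called change, at -0.06 ± 0.05 without M1. Sec61beta and Sec61gamma fell with the population block and without M1 (adjusted p = 0.00536 and 0.0135).

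Of the 8 folding genes, 5 fell without M1, namely Hsc70-3, Gp93, Grp170, CaBP1 and Ero1L. Hsc70-3 (FBgn0001218, chromosome X, 11801696 to 11807117) had 945, 909 and 851 CPM in polygamous males of 96 h and 1169.9, 1149 and 1138 CPM in those of 48 h. In monogamous males the values were 782, 896 and 842 CPM at 96 h and 443, 1056 and 1108 CPM at 48 h. Apart from M1 at 48 h, every 96 h library lay below every 48 h library. The change was -0.34 ± 0.04 without M1, 1.26-fold lower (adjusted p = 0.00137), and -0.20 ± 0.18 with all libraries (adjusted p = 0.614), the standard error being much larger with M1 in. Gp93 and Grp170, a chaperone of the Hsp110 type, fell 1.25-fold and 1.28-fold without M1 (adjusted p = 6.59e-04 and 0.00344). The isomerase CaBP1 fell 1.13-fold and Ero1L, the oxidase that recharges the isomerases, 1.12-fold (adjusted p = 0.0382 and 0.0464).

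Calr, Cnx99A and ERp60 were not called with or without M1, but with the population block and without M1, Calr fell 1.16-fold and ERp60 1.06-fold (adjusted p = 6.81e-04 and 0.0373). Calr (FBgn0005585, chromosome arm 3R, 9628691 to 9630851) had 933, 749.9 and 754 CPM in polygamous males of 96 h and 1011, 923 and 949 CPM in those of 48 h. Its levels in monogamous males were 742, 687 and 779.7 CPM at 96 h and 371, 779 and 885 CPM at 48 h. The polygamous library P1 of 96 h reached into the range of the 48 h libraries, and the change was -0.06 ± 0.18 with all libraries and -0.21 ± 0.07 without M1 (adjusted p = 0.890 and 0.141). Cnx99A (FBgn0015622, chromosome arm 3R, 29315254 to 29319644), a membrane lectin chaperone related to Calr, had 541, 491 and 490.2 CPM in polygamous males of 96 h and 529, 488 and 499 CPM in those of 48 h. Monogamous males had 457, 492 and 471 CPM at 96 h and 404, 494 and 495 CPM at 48 h. The ages overlapped throughout and the change was 0.02 ± 0.06 with all libraries and -0.02 ± 0.04 without M1 (adjusted p = 0.909 and 0.883). Members of the folding group therefore did not all move by the same amount, from -0.36 to -0.02 on the log2 scale without M1.

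The COPII coat was uneven too. Sec24CD (FBgn0262126, chromosome arm 2L, 2231106 to 2236844), a Sec24 gene, whose product chooses cargo, had 135, 132 and 126 CPM in polygamous males of 96 h and 189.8, 174 and 169 CPM in those of 48 h. Monogamous males had 112, 129 and 119 CPM at 96 h and 92.3, 169 and 167 CPM at 48 h. Outside M1 every 96 h library lay below every 48 h library, with no overlap. Its change was -0.44 ± 0.04 without M1, 1.36-fold lower (adjusted p = 7.19e-04), and -0.35 ± 0.13 with all libraries (adjusted p = 0.216). The other Sec24 gene of the list, Sec24AB, changed by -0.10 ± 0.03 without M1 (adjusted p = 0.0883), and the difference between these genes was not tested. Non-coding genes on the other strand share 10.3% of the exon bases of Sec24CD and 9.65% of those of Sec24AB.

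Sec31 (FBgn0033339, chromosome arm 2R, 8893613 to 8898798), an outer coat subunit, had 143, 136 and 144 CPM in polygamous males of 96 h and 182, 164 and 174 CPM in those of 48 h. In the monogamous lines it had 145, 109.8 and 115.1 CPM at 96 h and 137, 142 and 154 CPM at 48 h. The 96 h libraries of M2 and M3 were the 2 lowest, and the ages overlapped over both regimes. Sec31 fell 1.27-fold without M1 (log2 -0.34 ± 0.04, adjusted p = 0.00197), whereas with all libraries its change of -0.26 ± 0.07 did not pass (adjusted p = 0.0906). Sec13 (FBgn0024509, chromosome arm 3R, 23356278 to 23358531), its partner in the outer coat, had 76.4, 73.0 and 68.3 CPM in polygamous males of 96 h and 84.9, 80.4 and 79.5 CPM in those of 48 h. Monogamous males had 73.0, 65.3 and 69.4 CPM at 96 h and 60.7, 70.8 and 70.0 CPM at 48 h. The ages overlapped, and the change of Sec13 was -0.06 ± 0.05 (adjusted p = 0.584), or -0.12 ± 0.04 without M1 (adjusted p = 0.141).

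Sar1 (FBgn0038947, chromosome arm 3R, 22356685 to 22360711), which starts coat assembly, had 166, 166 and 159 CPM in polygamous males of 96 h and 181, 176 and 178 CPM in those of 48 h. The monogamous libraries held 165, 159 and 170.0 CPM at 96 h and 138, 164 and 175 CPM at 48 h. Only the M1 library of 48 h stood apart from a narrow band, and the change of -0.04 ± 0.05 did not pass (adjusted p = 0.765, and 0.196 without M1). Sec16, which marks the sites where vesicles leave the ER, fell 1.22-fold without M1 (adjusted p = 6.59e-04). The inner coat subunit Sec23 fell 1.18-fold (adjusted p = 0.0366). In all, 4 of the 7 COPII genes fell without M1, and with the population block added Sec13, Sec24AB and Sar1 fell as well (adjusted p = 0.0160, 0.0216 and 0.0307).

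Among the cargo and retrieval receptors, eca, CHOp24 and KdelR fell without M1 and bai did not pass. CHOp24 (FBgn0029709, chromosome X, 4540908 to 4542506), a receptor of the p24 family, had the largest change with age of any member. It had 77.0, 62.3 and 65.4 CPM in polygamous males of 96 h and 103, 99.7 and 96.8 CPM in those of 48 h. Monogamous tracts held 62.9, 56.5 and 68.7 CPM at 96 h and 51.0, 77.2 and 92.9 CPM at 48 h. Outside M1 the ages did not overlap. The change was -0.50 ± 0.08 without M1, 1.41-fold lower (adjusted p = 0.0103), and -0.39 ± 0.12 with all libraries (adjusted p = 0.156). The p24 receptor bai (FBgn0045866, chromosome arm 3R, 25039374 to 25040443) had 193, 168 and 175 CPM in polygamous males of 96 h and 233, 210.1 and 211 CPM in those of 48 h. Monogamous males had 178, 163 and 185 CPM at 96 h and 142, 183 and 222 CPM at 48 h. The M2 library of 48 h lay within the range of the 96 h libraries, and the change was -0.25 ± 0.07 without M1 (adjusted p = 0.0639) and -0.17 ± 0.09 with it (adjusted p = 0.371). With the population block and without M1 bai fell (adjusted p = 3.57e-05). The third p24 protein, eca, fell 1.20-fold and KdelR, which returns escaped chaperones to the ER, 1.25-fold without M1 (adjusted p = 0.0135 and 0.0285).

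All 6 COPI subunits fell with age without M1, the one role with every measured member called. EpsilonCOP (FBgn0027496, chromosome arm 2L, 6489090 to 6490194) was the member that fell with all libraries in. It had 80.0, 72.6 and 72.1 CPM in polygamous males of 96 h and 101, 97.1 and 91.6 CPM in those of 48 h. In monogamous males it had 77.9, 68.8 and 76.0 CPM at 96 h and 79.7, 77.5 and 80.1 CPM at 48 h. Each population was lower at 96 h, the polygamous ages did not overlap, and M1 at 48 h was close to M2 and M3. Its change was -0.23 ± 0.05, 1.17-fold lower (adjusted p = 0.0431), and without M1 -0.24 ± 0.05 (adjusted p = 0.0179). It shares 40 exon bases with Phf5a on the other strand. This call rested on the full set of libraries: it was lost when any 1 library other than the M1 library of 48 h was left out (11 of 12 libraries, adjusted p = 0.0522 to 0.128), with a change between -0.26 and -0.20 throughout.

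AlphaCOP (FBgn0025725, chromosome arm 3L, 1641066 to 1645199), which binds retrieval signals, had 147, 147 and 137 CPM in polygamous males of 96 h and 199, 189.9 and 186 CPM in those of 48 h. Its levels in monogamous males were 132, 138 and 144 CPM at 96 h and 92.2, 173 and 178 CPM at 48 h. Outside M1 every 96 h library lay below every 48 h library. The change was -0.37 ± 0.03 without M1, 1.29-fold lower (adjusted p = 6.66e-04), and -0.26 ± 0.13 with it (adjusted p = 0.358). The remaining subunits betaCOP, gammaCOP, deltaCOP and zetaCOP fell by 0.32, 0.35, 0.20 and 0.17 on the log2 scale without M1, with adjusted p from 0.00307 to 0.0428.

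Grasp65 (FBgn0036919, chromosome arm 3L, 19924943 to 19927175), a Golgi stacking and tethering protein, had 105, 96.3 and 90.8 CPM in polygamous males of 96 h and 138, 130.4 and 128 CPM in those of 48 h. Monogamous males had 96.8, 88.8 and 93.0 CPM at 96 h and 66.5, 109.8 and 116 CPM at 48 h. Outside M1 the ages did not overlap, and the 48 h values of the polygamous populations lay above those of the monogamous ones. Its change was -0.38 ± 0.05 without M1, 1.30-fold lower (adjusted p = 0.00227), and -0.26 ± 0.11 with it (adjusted p = 0.290). Its partner GM130 changed by -0.19 ± 0.05 without M1 and did not pass (adjusted p = 0.0567), but fell with the population block added (adjusted p = 7.63e-04).

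No ER stress gene passed the test with or without M1 in the fit without the block (1 of 4 at an unadjusted p under 0.05 in each, and 0 called by DESeq2 with all libraries). Ire1 (FBgn0261984, chromosome arm 3R, 19853908 to 19861291), the kinase and nuclease of the ER membrane, had 62.4, 62.6 and 62.4 CPM in polygamous males of 96 h and 56.7, 56.1 and 60.0 CPM in those of 48 h. In the monogamous lines it had 67.2, 55.5 and 62.8 CPM at 96 h and 34.9, 50.7 and 55.9 CPM at 48 h. It was the one member higher at 96 h in each of the 6 populations, a count given without the share of all genes, and the ages overlapped. Its change of 0.25 ± 0.10 with all libraries and of 0.13 ± 0.05 without M1 did not pass (adjusted p = 0.232 and 0.133), and with the population as a block and M1 left out it rose 1.10-fold (adjusted p = 0.00883). MICU3 on the other strand shares 12.3% of its exon bases. Xbp1 (FBgn0021872, chromosome arm 2R, 21143545 to 21145750), the transcription factor whose messenger Ire1 splices, had 145, 152 and 150.3 CPM in polygamous males of 96 h and 162, 158 and 158 CPM in those of 48 h. Monogamous males had 159, 141 and 158 CPM at 96 h and 114, 135 and 144 CPM at 48 h. All 3 polygamous populations were lower at 96 h and all 3 monogamous ones higher, but the difference between the regimes' age changes, -0.32 ± 0.11, did not pass (adjusted p = 0.919). Gene counts do not separate spliced from unspliced Xbp1 messenger.

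PEK (FBgn0037327, chromosome arm 3R, 5458563 to 5464753), a kinase that slows translation, had 68.0, 55.7 and 59.4 CPM in polygamous males of 96 h and 64.5, 56.2 and 57.2 CPM in those of 48 h. The monogamous libraries held 58.4, 51.6 and 51.7 CPM at 96 h and 47.2, 51.7 and 56.4 CPM at 48 h. The ages overlapped, and its change was 0.05 ± 0.07 with all libraries and -0.01 ± 0.06 without M1 (adjusted p = 0.753 and 0.955). Atf6 changed by -0.13 ± 0.07 without M1 (adjusted p = 0.309), and fell with the population block added (adjusted p = 0.0239). Transposable element copies overlap its exons on both strands.

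Averaged over both regimes and with all libraries, 1 of 41 members fell, a share to be read against 0.646% of all genes tested, and 0 rose. The median log2 change was -0.13 over the members and 0.01 over all genes tested, and 36 of 41 members had a negative sign. Without M1, 21 of 41 fell against 3.53% of all genes tested, and the median over the members was -0.19. The members were chosen with earlier results of these data known, which limits this contrast with all genes. By role, the calls without M1 are counted next. They were 6 of 6 COPI subunits, 4 of 7 COPII genes, 3 of 4 cargo and retrieval receptors, 1 of 2 Golgi tethers, 5 of 8 folding genes, 2 of 5 translocation genes, 0 of 5 targeting genes and 0 of 4 ER stress genes. Median changes without M1 were -0.29 for the cargo and retrieval receptors, -0.28 for COPI and -0.23 for COPII. They were -0.20 for folding, -0.13 for translocation, -0.12 for targeting and 0.00 for ER stress. With the population as a block the count was 1, again epsilonCOP (1.88% of all genes tested fell), and with the block and without M1 it was 33 lower and 1 higher (11.0% and 10.7% of all genes tested). DESeq2 called 5 lower, namely epsilonCOP, Sec31, Sec61gamma, eca and CHOp24 (2.62% of all genes tested).

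**Figure D3:**
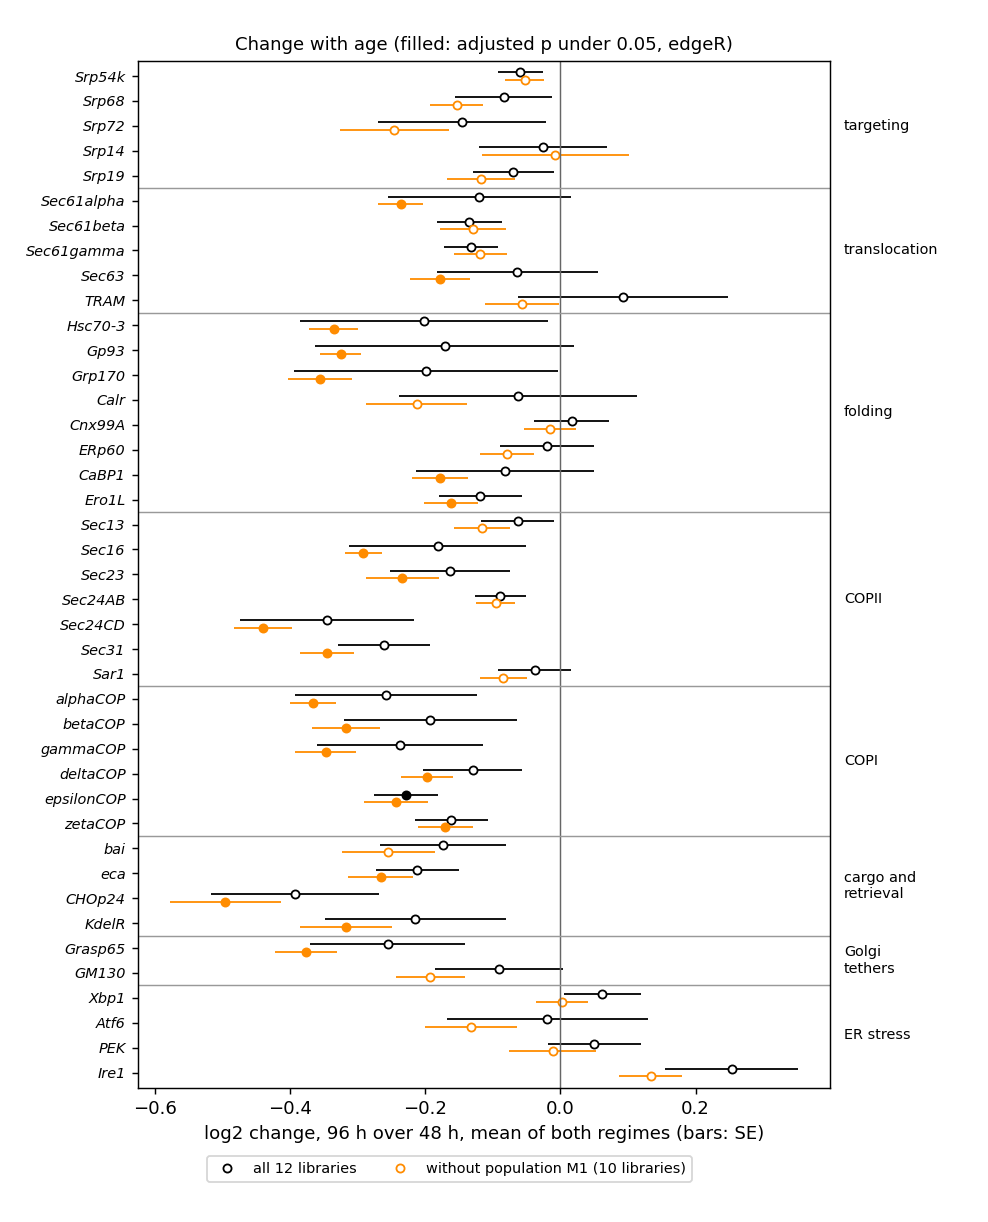
Log2 change with age (96 h over 48 h, mean of both regimes) of each member with its standard error, from edgeR with all 12 libraries (black) and without population M1 (orange), with filled points where the adjusted p was under 0.05. The filled points, 1 black and 21 orange, all lie left of 0, and the black error bars are the longer ones for most members.

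The median log2 change over the 41 members was -0.22 in P1, -0.20 in P2 and -0.25 in P3, and -0.16 in M2 and -0.16 in M3, but 0.33 in M1. Over all genes tested, the medians of the 6 populations lay between 0.00 and 0.01. In the 5 populations other than M1, 34 of 41 members were lower at 96 h in every one, as were 14.3% of all genes tested. In all 6 populations this held for 6 members, epsilonCOP, zetaCOP, Sec24AB, Sec61beta, Sec61gamma and Srp54k, and for 8.34% of all genes tested. With M1 left out, every 96 h library lay below every 48 h library for 21 members and for 3.75% of all genes tested. In M1 34 of 41 members were higher at 96 h, so leaving it out favours such agreement and the calls made without it.

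**Figure D4:**
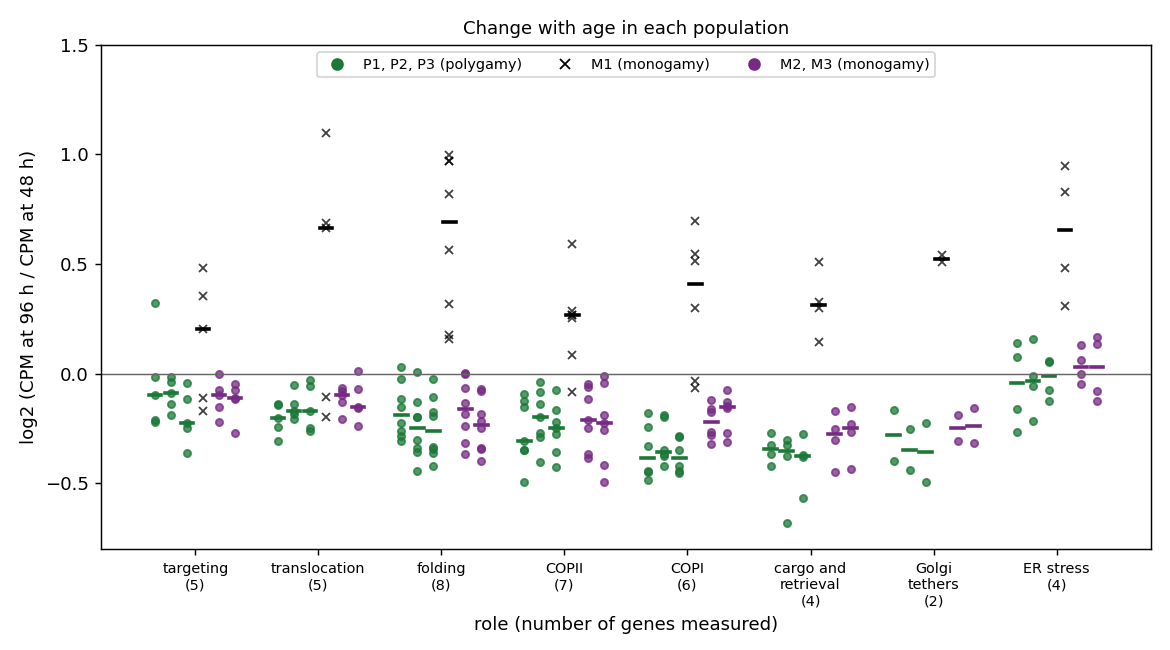
Log2 of CPM at 96 h over CPM at 48 h for each member (points) in each population, grouped by role, with a bar at the median of each role. Green points are P1 to P3, purple points M2 and M3 and black crosses M1, and the crosses lie mostly above 0 while the other populations lie mostly below it, except among the ER stress genes.

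Accessory gland main cell markers, all 9 matched, were lower at 96 h in sum in the 5 populations other than M1 and higher in M1. Main cell markers summed to 14388 to 16795 CPM in polygamous males of 96 h, against 25220 to 26502 CPM in those of 48 h, and to 14410 to 17235 CPM in monogamous males of 96 h, against 7507 CPM in M1 and 19851 and 24563 CPM in M2 and M3 of 48 h. Within the list Acp26Ab was higher at 96 h in all 6 populations, and SP and Acp98AB in 3 of 6. For the ejaculatory duct and bulb, 7 listed symbols gave 5 genes, as PebIII was not matched and Peb named the same gene as Ebp. These 5 markers summed to 2170.5 to 3109.5 CPM at 96 h and 4242 to 5457 CPM at 48 h in polygamous males. In monogamous males they summed to 2144 to 4327 CPM at 96 h and 4092 to 5372 CPM at 48 h. The 96 h libraries of M1 and M3 stood apart in the bulb markers. Ebp was at 506 and 487 CPM there and between 0.575 and 8.53 CPM in the other 10 libraries, and EbpII at 141 and 136 CPM, against 0.102 to 5.80 CPM. Without population M1 and the M3 library of 96 h, a setting chosen after the data were seen, 18 members fell with age, against 3.07% of all genes tested. Spermatocyte and spermatid markers summed to 10090 to 10954 CPM and 10664 to 11567 CPM in polygamous males of 96 h and 48 h, and to 10969 to 11569 CPM and 11120 to 14564 CPM in monogamous ones. These markers did not move together. At 96 h aly, can and comr were higher in all 6 populations and sa, mia, fzo and twe in 5 of 6. Mst98Ca, Mst98Cb and ProtB were lower in all 6, and the rest were mixed. Secondary cell markers summed to 1002 to 1138 CPM in polygamous males of 96 h and 1057 to 1295 CPM in those of 48 h. Their sum was higher at 96 h in each monogamous population, at 1146, 928 and 1168 CPM in M1, M2 and M3, against 145, 792 and 972 CPM at 48 h. Within the list Abd-B went the other way in M2, from 22.3 CPM at 48 h to 19.2 CPM at 96 h, and in M3, from 26.7 to 21.7 CPM. Fat body markers summed to 93.7 to 107 CPM at 96 h and 131 to 137 CPM at 48 h in polygamous males, and muscle markers, 9 of 10 matched, to 1261 to 1382 CPM and 1394 to 1626 CPM. In monogamous males fat body markers summed to 83.4 to 99.2 CPM at 96 h and 111 to 266 CPM at 48 h, and muscle markers to 1215 to 1299.8 CPM and 938 to 1399.9 CPM. Among the muscle markers Mf and sls were higher at 96 h in 4 of 6 populations. Haemocyte and basement membrane markers, all 8 matched, summed to 134 to 168 CPM in polygamous males of 96 h and 199.6 to 216 CPM in those of 48 h, and to 107 to 198 CPM in monogamous males of 96 h and 195 to 435 CPM in those of 48 h. Of these, vkg, Col4a1, SPARC and Pxn were lower at 96 h in all 6 populations. Hml was higher in 4 of 6, among them all 3 polygamous ones, Ppn in 3, NimC1 in 2 and eater in 1. Markers of germline before meiosis, 3 of 5 matched, and of somatic testis cells, 6 of 6, overlapped between the ages and stayed within 116 to 143 CPM and 95.3 to 109 CPM over the 12 libraries. Of all markers matched, the fat body gene Fbp1 was the 1 with a count of 0 in some libraries. The part of cell composition in the members' change with age was not tested.

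Within polygamous males, 0 members were called with all libraries (0.0684% of all genes tested fell), 13 had an unadjusted p under 0.05, and DESeq2 called epsilonCOP and eca (0.737% of all genes tested fell). Their median change was -0.22, with 37 of 41 negative. Without M1, whose libraries are not polygamous but enter the shared estimate of the spread, 15 polygamous members fell, against 2.12% of all genes tested, with the same median of -0.22. In polygamous males CHOp24 was 1.46-fold, Sec24CD 1.36-fold and Grasp65 1.36-fold lower at 96 h by that fit (adjusted p = 0.0291, 0.00434 and 0.00651). The population block gave 1 call, epsilonCOP (0.327% of all genes tested fell), and the block without M1 gave 31 (8.48%). Leaving out population M1 and the M3 library of 96 h gave 16 (2.41%). Within monogamous males, 0 members were called with all libraries (0.152% of all genes tested fell), 4 had an unadjusted p under 0.05 and DESeq2 called 0. The median was -0.04 with M1, with a change of sign to 0.02 when libraries were scaled by size alone, and -0.15 without M1. Without M1, 6 members fell in monogamous males, alphaCOP, Sec16, Sec24CD, Sec31, Hsc70-3 and Gp93, against 0.431% of all genes tested, and the block without M1 gave 22 (3.93%). These counts rest on the 2 populations M2 and M3, with a spread estimated from all 10 libraries left. Without the M3 library of 96 h as well, which leaves M2 alone at that age, 0 were called by edgeR (0.104% of all genes tested fell) and 17 had an unadjusted p under 0.05. Sec24CD was 1.35-fold and Gp93 1.26-fold lower at 96 h by the fit without M1 and without the block (adjusted p = 0.0223 and 0.0191).

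Whether the age change differed between polygamous and monogamous males was tested directly. The difference was not called for any of the 41 members by edgeR or DESeq2, 2 of them (epsilonCOP and Xbp1) had an unadjusted p under 0.05, and 0% of all genes tested were called by edgeR. The median difference was -0.23 with all libraries and -0.06 without M1, against 0.01 over all genes tested with all libraries. For epsilonCOP the difference was -0.27 ± 0.10 (adjusted p = 0.919), with changes of -0.36 ± 0.07 in polygamous and -0.09 ± 0.07 in monogamous males, and without M1 it was -0.24 ± 0.09. For Sec13 it was -0.21 ± 0.11 (adjusted p = 0.919).

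Polygamous and monogamous males of the same age were then compared. At 48 h, 0 of 41 members were called by edgeR, as were 0% of all genes tested. Of the members 13 had an unadjusted p under 0.05, a count given without the share of all genes. DESeq2 called 2 members higher in polygamous males, epsilonCOP and Sec13, where 0.646% of all genes tested were called higher. The median log2 difference was 0.28 over the members and 0.00 over all genes, with 37 of 41 members positive, and it was 0.11 over the members without M1. By role the median ran from 0.17 for targeting to 0.37 for folding with all libraries, and from 0.04 for targeting to 0.16 for COPI without M1. For 26 members every polygamous library of 48 h lay above every monogamous one, as for 11.9% of all genes tested, and the count was also 26 without M1, as for 17.2% of all genes. Summed main cell markers did not overlap at 48 h, at 25220 to 26502 CPM in polygamous and 7507 to 24563 CPM in monogamous males. Summed secondary cell markers did not either, at 1057 to 1295 CPM and 145 to 972 CPM. Taken singly, Acp36DE, Acp26Aa and Acp53Ea did not overlap, but the main cell markers Acp26Ab, SP, Acp62F, Acp63F, Acp95EF and Acp98AB did. Among secondary cell markers Abd-B overlapped, and lectin-46Ca, lectin-46Cb and CG17575 did not. The part of these markers in the members' difference was not tested.

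EpsilonCOP, Sec13 and Xbp1 had the smallest adjusted p at 48 h. EpsilonCOP was 1.22-fold higher in polygamous males with no overlap (log2 0.29 ± 0.07, adjusted p = 0.245 by edgeR and 0.0152 by DESeq2). Sec13 differed by 0.28 ± 0.08 (adjusted p = 0.248 by edgeR and 0.0474 by DESeq2), also with no overlap. Xbp1 differed by 0.28 ± 0.08 (adjusted p = 0.248 by edgeR), and its 3 polygamous libraries lay above its 3 monogamous ones. Without M1 these differences were 0.29 ± 0.07, 0.21 ± 0.06 and 0.19 ± 0.06 (adjusted p = 0.205, 0.243 and 0.253), and that of Calr was 0.21 ± 0.11, against 0.50 ± 0.25 with M1. Gp93 differed by 0.12 ± 0.04 without M1 and by 0.45 ± 0.27 with it.

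At 96 h, 0 of 41 members were called by edgeR or DESeq2, 0 had an unadjusted p under 0.05, and edgeR called 0% of all genes tested. The median difference was 0.04, and every member lay between -0.04 and 0.19. Sec31, PEK and Cnx99A had the smallest p, with differences of 0.19 ± 0.10, 0.18 ± 0.10 and 0.10 ± 0.08 (adjusted p = 1.00, shared by every member). Polygamous libraries of 96 h lay above all monogamous ones for 3 members, Sec61alpha, Gp93 and ERp60, as for 5.63% of all genes tested, and for 5 members without M1, as for 11.9% of all genes. When both libraries of a population were summed, so that each population counted once, 0 members were called by edgeR or DESeq2 and 0% of all genes tested were called by edgeR, with 6 members at an unadjusted p under 0.05. The median over the members was then 0.17, and 0.08 without M1. Sec31, Sec13 and Grasp65 had the smallest p, and their differences were 0.23 ± 0.06, 0.17 ± 0.05 and 0.26 ± 0.09 (adjusted p = 0.520 for all 3).

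**Figure D5:**
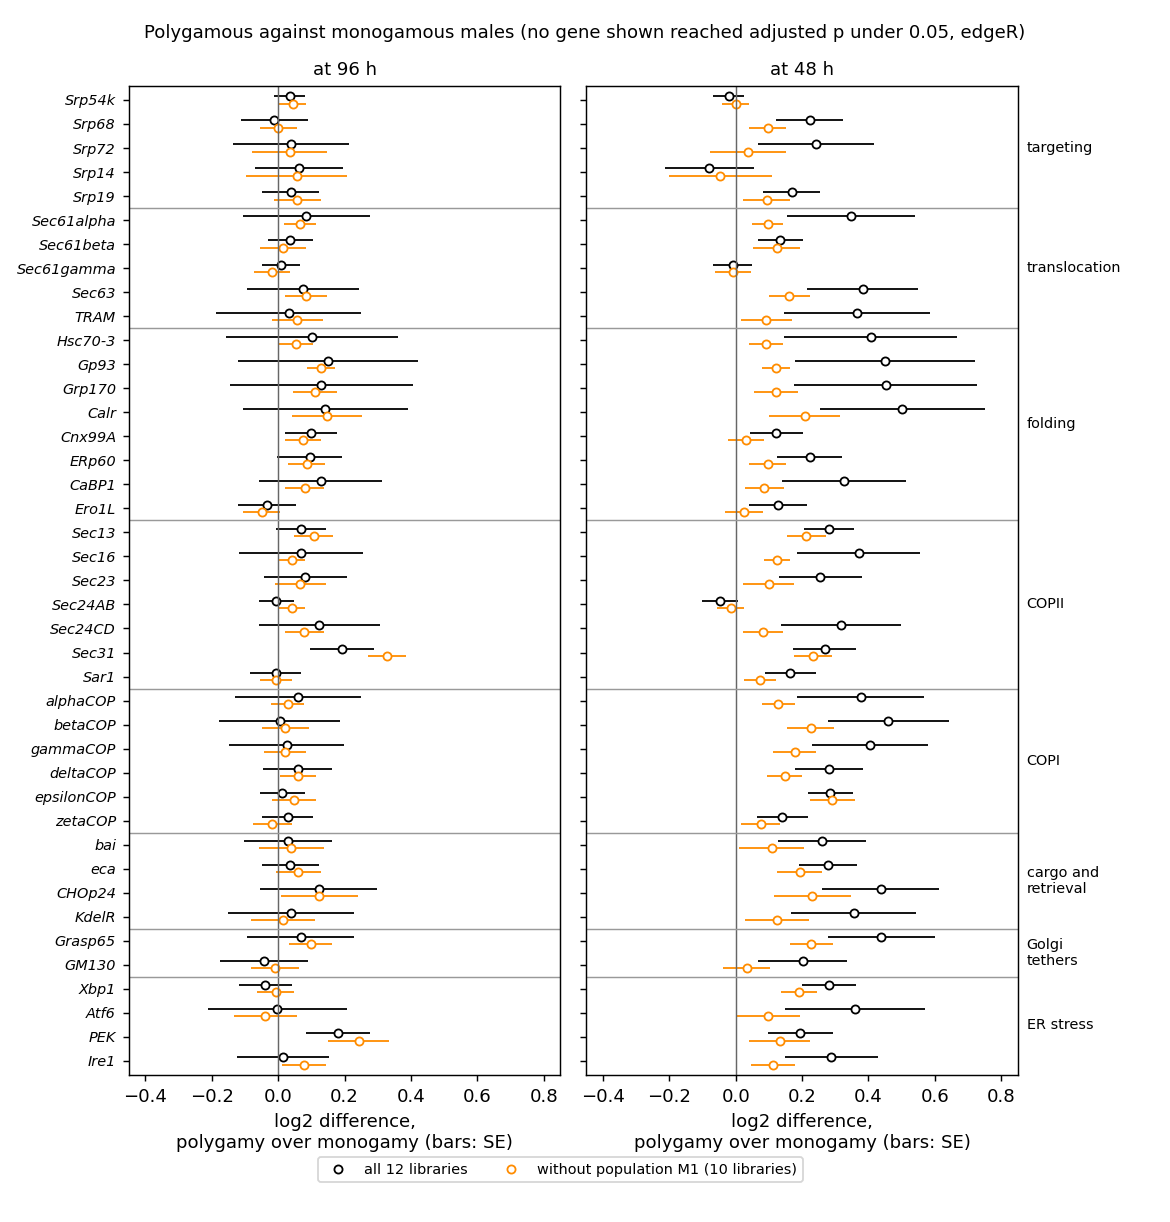
Log2 difference of polygamous over monogamous males at 96 h (left) and 48 h (right) for each member with its standard error, from edgeR with all 12 libraries (black) and without population M1 (orange). No point is filled, since no member reached an adjusted p under 0.05, and leaving out M1 moves most points of the 48 h panel towards 0.

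The low levels in M1 at 48 h were not even over the pathway. Relative to the median of the other 5 libraries of that age, the 41 members had a median ratio of 0.670, with 35 members lowest in M1, 4 inside the range (epsilonCOP, Sec61beta, Sec61gamma and Srp14) and 2 highest in M1 (Sec24AB and Srp54k). The same library was the lowest of the 6 for 34.7% of all genes tested. Folding genes had a median ratio of 0.470, with Grp170 and Gp93 at 0.363, Hsc70-3 at 0.390 and Calr at 0.402. The median ratio was 0.599 for COPI, 0.764 for COPII, 0.540 for translocation and 0.801 for targeting. With 1 library these ratios have no replicate check. At 96 h the M1 library lay close to the others, with a members' sum of 7425 CPM against 7446 and 7621 CPM in M2 and M3.

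The balance between ER steps and coat steps was followed as the ratio of summed CPM of the 18 measured genes of targeting, translocation and folding over that of the 13 measured coat genes. It was 3.29, 3.06 and 3.10 in polygamous males of 96 h and 3.03, 3.09 and 3.06 in those of 48 h. In monogamous males it was 2.90, 3.11 and 3.10 at 96 h and 2.24, 3.06 and 3.11 at 48 h. Only M1 at 48 h was far from the rest. The log2 change of the ratio with age averaged 0.09 ± 0.15 (SD, n = 6 populations) and was positive in 4 of 6, and without M1 it was 0.03 ± 0.05 (SD, n = 5), less than the spread. The sums are led by Calr, Hsc70-3 and other abundant chaperones. When each gene counted equally, through the median of levels relative to each gene's own mean, the ratio's change was 0.10 ± 0.05 (SD, n = 6) and positive in 6 of 6, so coat genes stood lower against ER genes at 96 h by this measure. The median fitted change without M1 was -0.16 for the ER steps, with 7 of 18 called, and -0.24 for the coat steps, with 10 of 13 called, and no test of this difference was made.

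Other genes of the same route were taken from a list of 75, of which 62 were matched and tested. This list too was chosen with earlier results of these data known. With all libraries and averaged over regimes, 0 of 62 were called by edgeR and 6 had an unadjusted p under 0.05. DESeq2 called 1 lower, Spase12, a subunit of the signal peptidase (2.62% of all genes tested fell). Their median change was -0.06. With the population block 1 was called higher, Cnx14D, a calnexin (0.24 ± 0.05, adjusted p = 0.0436). The share of all genes tested called higher in that fit is not given here, so this call does not show an excess. Without M1, 17 of 62 fell, against 3.53% of all genes tested, and 0 rose, and the median was -0.10. These were 7 of 10 genes of glycosylation and quality control (Ost48, OstDelta, Stt3B, Edem1, Edem2, GCS2alpha and GCS2beta), 2 of 4 further folding genes (wbl and P58IPK), 2 of 16 of ER to Golgi traffic (beta'COP and p24-1), 4 of 18 of the Golgi matrix (p115, lva, Cog3 and Cog6), 1 of 8 of targeting and translocation (Spase12) and 1 of 6 of degradation and stress response (CrebA). The seventh COPI subunit, beta'COP, fell 1.33-fold (adjusted p = 0.00389) and Ost48, a subunit of the enzyme that attaches sugar chains, 1.28-fold (adjusted p = 0.00223). CrebA, a transcription factor known to drive secretory pathway genes in fly secretory tissues, fell 1.29-fold (adjusted p = 0.0134). In the regime comparisons 0 of the 62 were called by edgeR or DESeq2, with 12 at an unadjusted p under 0.05 at 48 h, 1 at 96 h and 2 over population sums by edgeR.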

How the data were processed

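Total RNA of pooled reproductive tracts was sequenced with a stranded kit, per the labels' protocols. The authors deposited 1 table of unnormalised read counts for each library, made with Trimmomatic 0.33, TopHat2 2.1.0, HTSeq 0.6.1 and build BDGP6, per the submitters' processing notes. Counts of genes that overlap others are uncertain, since the strand setting and counting mode are not given in the sources used here. HTSeq's summary lines (15.1% to 17.2% of the reads counted) were left out. Symbols and positions came from Ensembl's BDGP6.54 annotation, which held 17253 of the 17559 identifiers. The members, their roles and the gene lists were chosen with earlier results of these data known.

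Counts were tested with edgeR 4.0.16 (quasi-likelihood, robust, TMM scaling, filterByExpr; R 4.3.3), with 1 coefficient per group of regime and age, Benjamini-Hochberg adjustment over the 13156 genes that passed (13226 without M1, 13512 for population sums) and a threshold of 0.05. The test was also run on simulated counts, whose changes were larger than the members' fitted ones and whose libraries held no outlier. That run does not bear on changes of the members' size. Standard errors were derived from the fitted change and its test statistic. CPM used TMM-scaled library sizes. No 2 files of a group were identical. Population numbers pair the ages, since both libraries of a number came from the same population, and their deviations from the group means correlated at 0.401 to 0.593. Alternatives were DESeq2 1.42.0, other size factors, no filter, the population block and libraries left out. Leaving out both population M1 and the M3 library of 96 h was added after the data were seen and tested 13435 genes, with the lone monogamous 96 h library, M2, assumed to vary like the other groups.

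Values in every library are given for members called with all libraries, the most abundant and the most age-changed member of each role, and the 3 with the smallest p in each regime comparison and in the difference. Members called without M1 and Sec61gamma were named after their values were seen, as were other pathway genes called without M1.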

Additional observations from a re-analysis of the deposited data

How the results depend on the processing

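The decline with age kept its direction in the members' median under every scaling, filter and tool when averaged over regimes (-0.14 to -0.06), but its count of calls did not hold steady. That count, 1 of 41 members with all libraries, was 0 with library size only, 0 with size factors from testis markers, 0 with no filter, 5 with DESeq2, 21 without population M1 and 34 (33 lower and 1 higher) without population M1 and with the population as a replicate block, and it ranged from 0 to 23 when 1 library was left out. Leaving out the 96 h library of M1 gave 1 call, Sec31 instead of epsilonCOP. In monogamous males the count, 0 in the main test, was 6 without M1, 22 without M1 and with the block, and 0 to 7 with 1 library left out. In polygamous males the count, also 0 in the main test, was 2 with DESeq2, 15 without M1, 1 with the replicate block, 31 without M1 and with the block, and 0 to 15 with 1 library left out. Without population M1 and the M3 library of 96 h, added after the data were seen, the count averaged over regimes was 18 and that in polygamous males 16. The highest of each range came without the 48 h library of M1, and the cause of the other changes was not tested. DESeq2 called 2 members between the regimes at 48 h. The replicate block changed no other count of calls by itself, and no block was possible between regimes, whose populations differ. The change of Calr in monogamous males, 0.12 ± 0.25 with all libraries, was -0.18 without M1 and with the block (adjusted p = 0.0446), the 1 named result with a called change of sign. Size factors from testis markers moved the median of all genes by 0.12 in the regime comparison at 48 h, where the members' median was 0.39. The counts for the difference of age changes, the regimes at 96 h and the population sums were 0 under every alternative run. Depth did not limit the members' levels, but 3 libraries per group, and 1 pool per population and age, limit every test.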
